A study of Mus musculus with 2 samples.

Results

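The Cd7 Dtx1 Trat1 ILC2 subset is a small group of type 2 innate lymphoid cells (ILC2s) of the fetal mouse lung, named after genes whose transcripts were used to choose it. Its members were chosen on raw counts of unique molecular identifiers (UMIs, each 1 captured RNA molecule). A barcode counted as an ILC2 with at least 1 Gata3 UMI, at least 2 UMIs summed over Il2ra, Il2rb and Tnfrsf18, and at most 2 Tyrobp UMIs. ILC2s with more than 1 UMI summed over Mki67, Top2a, Cdk1, Birc5, Ube2c, Nusap1, Tpx2 and Cenpf were set aside as mitotic, and a remaining cell belonged to the subset when it held at least 2 UMIs summed over Cd7, Dtx1, Trat1 and Pde2a, here called the gate genes. Of 10648 barcodes, 8598 were singlets that passed the filters, 1744 were ILC2s, 1237 of these were non-mitotic and 85 formed the subset. The comparison group was the 1077 non-mitotic ILC2s with no gate UMI, called sum-0 cells, and 75 cells with exactly 1 gate UMI were in neither group.

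The cells came from wild-type fetuses harvested on gestation day 18. From gestation day 12 their 9-week-old mothers received 1.3 µg/ml of the synthetic glucocorticoid dexamethasone (DEX) in the drinking water, dissolved in phosphate-buffered saline (PBS), or PBS only. Living leukocytes (CD45+) that lacked lineage markers and carried ST2 were sorted, and the lungs of each litter were pooled and stained with a hashtag antibody of their own: 8 and 9 fetuses in the DEX litters 1 and 2, and 5 and 8 in the PBS litters 1 and 2. All litters were read in 1 run, so a litter is the replicate, with 2 per treatment, and what differs between mothers cannot be told apart from what differs between single litters of a treatment.

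ILC2s are tissue-resident lymphocytes without rearranged antigen receptors at their surface. They depend on the transcription factor GATA3, respond to the epithelial alarmin IL-33 through ST2 (encoded by Il1rl1) and release IL-5, IL-13, GM-CSF and amphiregulin. They develop from lymphoid progenitors through stages that use TCF-1 (encoded by Tcf7), IL-7 receptor and Notch signals, and several genes of T cell signalling are transcribed in the lineage. Among the gate genes, Cd7 encodes an immunoglobulin-family surface receptor of T cells, NK cells and lymphoid progenitors, Dtx1 encodes Deltex-1, a ubiquitin ligase and regulator of Notch signalling, Trat1 encodes an adaptor that sits with the T cell receptor complex, and Pde2a encodes a phosphodiesterase that is stimulated by cGMP and breaks down cyclic nucleotides. Tcf7 and Ms4a4b, the latter a membrane protein of the MS4A family, were named together with them from these cells.

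The libraries read transcripts from their 5′ ends, so the counts of a gene come from near its transcript starts. Start regions are shown for Dtx1, Trat1 and Ms4a4b, which differed in the letters searched (RefSeq, GRCm38.p6, 250 bases before the start and 50 bases after, written along the gene's own strand). Capitals mark matches to the cores CTTTGA or CTTTGT of TCF/LEF factors, TGTGGT of RUNX factors, AGATAA of GATA factors and TGGGAA of RBPJ, the DNA-binding partner of Notch, searched on both strands, with no overlap between the matches shown.
Dtx1, chr5:120711620-120711919, minus strand: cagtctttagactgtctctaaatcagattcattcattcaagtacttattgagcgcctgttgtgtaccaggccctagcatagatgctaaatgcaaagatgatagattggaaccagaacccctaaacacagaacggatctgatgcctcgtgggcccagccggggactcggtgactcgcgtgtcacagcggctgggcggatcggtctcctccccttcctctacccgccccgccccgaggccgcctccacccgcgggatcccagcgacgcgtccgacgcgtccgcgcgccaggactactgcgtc
Trat1, chr16:48772013-48772312, minus strand: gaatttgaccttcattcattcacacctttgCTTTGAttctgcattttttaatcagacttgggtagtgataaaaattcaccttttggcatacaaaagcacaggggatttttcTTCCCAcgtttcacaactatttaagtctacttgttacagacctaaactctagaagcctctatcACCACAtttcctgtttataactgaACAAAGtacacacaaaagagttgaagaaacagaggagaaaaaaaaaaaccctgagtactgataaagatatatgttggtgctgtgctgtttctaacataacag
Ms4a4b, chr19:11443308-11443607, plus strand: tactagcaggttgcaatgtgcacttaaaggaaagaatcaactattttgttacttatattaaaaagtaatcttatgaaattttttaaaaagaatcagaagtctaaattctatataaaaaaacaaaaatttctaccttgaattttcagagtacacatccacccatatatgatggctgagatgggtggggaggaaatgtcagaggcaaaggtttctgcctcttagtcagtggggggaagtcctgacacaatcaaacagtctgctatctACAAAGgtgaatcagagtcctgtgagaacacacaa
The Dtx1 window held none of these cores, including that of RBPJ. The Trat1 window held the TCF/LEF core at 2 places, the RUNX core at 1 and the RBPJ core at 1, and the Ms4a4b window held 1 TCF/LEF core that began 15 bases after the start. Such short cores are frequent: the TCF/LEF core was in 31.2%, the RUNX core in 16.8%, the GATA core in 11.2% and the RBPJ core in 25.6% of 32817 promoter windows. In the 5 windows listed for Pde2a the GATA core occurred at 1 start, the RUNX core at 2 and the RBPJ core at 1, and the 2 windows of Tcf7 held none. The matches describe the letters alone.

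The values of the gate genes chose the cells and are given here as a description. Levels here are UMIs per 1000000 UMIs of the summed cells (CPM). Cd7 was the most abundant, at 351 and 354 CPM in the DEX litters and 320 and 146 CPM in the PBS litters, numbers 1 and 2 in each case, and 76.5% of the subset held at least 1 of its UMIs. Dtx1 stood at 92.6, 79.4, 109 and 192 CPM in the same order and was found in 40.0% of the cells. The litter with the lowest Cd7 thus had the highest Dtx1. Trat1 lay at 24.4, 67.2 and 54.3 CPM in 3 litters, and none of the 109608 subset UMIs of PBS-2 was from Trat1, which allows up to 27.4 CPM. Pde2a lay at 43.9, 18.3, 27.2 and 54.7 CPM and was found in 18.8% of the cells. Tcf7 and Ms4a4b, which the gate does not use, were at 87.7, 85.5, 81.5 and 36.5 CPM and at 102, 183, 92.3 and 63.9 CPM in the subset, against 9.15 to 14.8 and 1.66 to 5.27 CPM in sum-0 cells. No litter overlapped between the groups for either gene. Both were picked with the gate genes from these cells, so this is a description and no separate support for the subset. Among the 7953 genes tested between the groups, 12.1% had litters that did not overlap. Tcf7 was detected in 36.5% of subset cells and 6.96% of sum-0 cells, and Ms4a4b in 37.6% and 1.49%.

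**Figure D1:**
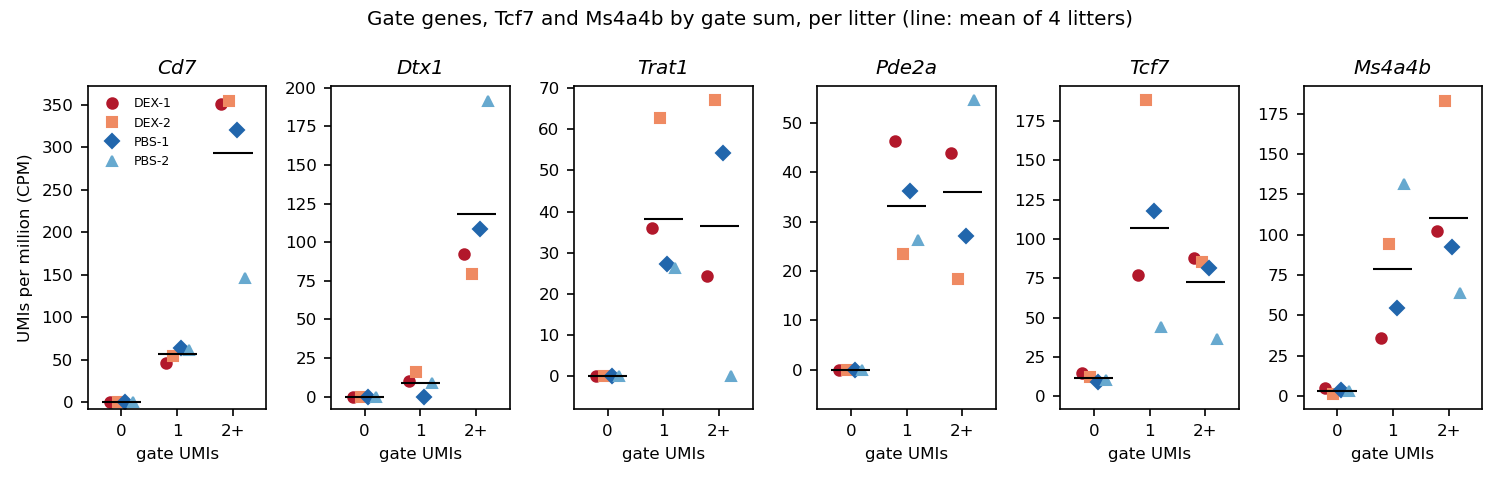
CPM of the 4 gate genes, Tcf7 and Ms4a4b in non-mitotic ILC2s with 0, 1 or at least 2 gate UMIs; each symbol is a litter and each line the mean of 4 litters, with a separate linear axis for each gene. Gate genes are at 0 in sum-0 cells by construction. Tcf7 and Ms4a4b, not used by the gate but picked with its genes from these cells, were higher in the cells with 1 gate UMI and in the subset than in sum-0 cells of every litter.

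The gate genes were rarely found all together. In the subset, 40 cells held UMIs of only 1 gate gene, 40 of 2 and 5 of 3. Cd7 alone chose 30 cells, and Cd7 with Dtx1 (14 cells) and Cd7 with Trat1 (9 cells) were the most frequent pairs. Over all 1237 non-mitotic ILC2s, Cd7 and Dtx1 were found together in 18 cells, where 3.06 would share them if detection of one were unrelated to that of the other, a ratio of 5.88. The ratio was 5.83 for Dtx1 with Trat1, 5.79 for Dtx1 with Pde2a, 3.94 for Cd7 with Trat1, 2.84 for Cd7 with Pde2a and 0.868 for Trat1 with Pde2a. When cells were chosen on the other 3 genes alone, Cd7 was detected in 42.9% of the 35 cells chosen and in 5.28% of the cells without UMIs of those genes. The same shares were 20.3% and 1.01% for Dtx1, 15.6% and 2.09% for Trat1, and 11.5% and 1.91% for Pde2a. Free RNA can give a UMI to a cell that does not transcribe a gene. In 3273 singlets with mast cell markers (median 7709 UMIs, against 6547 in non-mitotic ILC2s), Cd7 was detected in 5.26%, Dtx1 in 0.0611%, Trat1 in 0.306% and Pde2a in 1.99%, and 3.54% reached 2 gate UMIs, against 6.87% of non-mitotic ILC2s. In 1306 epithelial cell-marked singlets (median 17526.5 UMIs), Cd7 was detected in 2.30%, Dtx1 in 0.383%, Trat1 in 0.306% and Pde2a in 4.13%, and 1.84% reached 2 gate UMIs. The share of ILC2s with a Cd7 UMI but no other gate UMI was thus close to that of mast cell-marked singlets and above that of epithelial cell-marked singlets. Whether those ILC2s or the mast cell-marked singlets transcribe Cd7 was not tested. In 302 B cell-marked singlets, at a median of 4132.5 UMIs, Pde2a was detected in 8.28% and Dtx1 in 3.97%, against 2.83% and 3.15% of non-mitotic ILC2s. At least 1 gate UMI was found in 15.6% of B cell-marked singlets and 12.9% of non-mitotic ILC2s, and at least 2 in 3.97% and 6.87%. Whether B cells transcribe these genes was not tested.

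Cells just outside the gate resembled the subset in several genes the gate does not use. Tcf7 and Ms4a4b among them were picked with the gate genes from these cells, so their values are no separate support. In the 75 cells with 1 gate UMI, Tcf7 was at 104 CPM and Ms4a4b at 73.3 CPM, against 88.7 and 99.1 CPM in the 47 cells with 2 or 3 gate UMIs and 60.9 and 132 CPM in the 38 cells with 4 or more. Lmo4, a LIM-domain cofactor of transcription, was at 1006 CPM with 0 gate UMIs, 2192 with 1, 2162 with 2 or 3 and 2663 with 4 or more. The largest step for Lmo4 was between 0 and 1. Ccr8, a chemokine receptor of type 2 lymphocytes, fell along the same steps from 829 to 247, 112 and 140 CPM, and Il1rl1 from 256 to 150, 141 and 104 CPM. Gzmb was at 2.88, 36.7, 75.6 and 358 CPM, so that most of its UMIs were in the cells with 4 or more gate UMIs. These values over pooled litters are a description with no test.

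**Figure D2:**
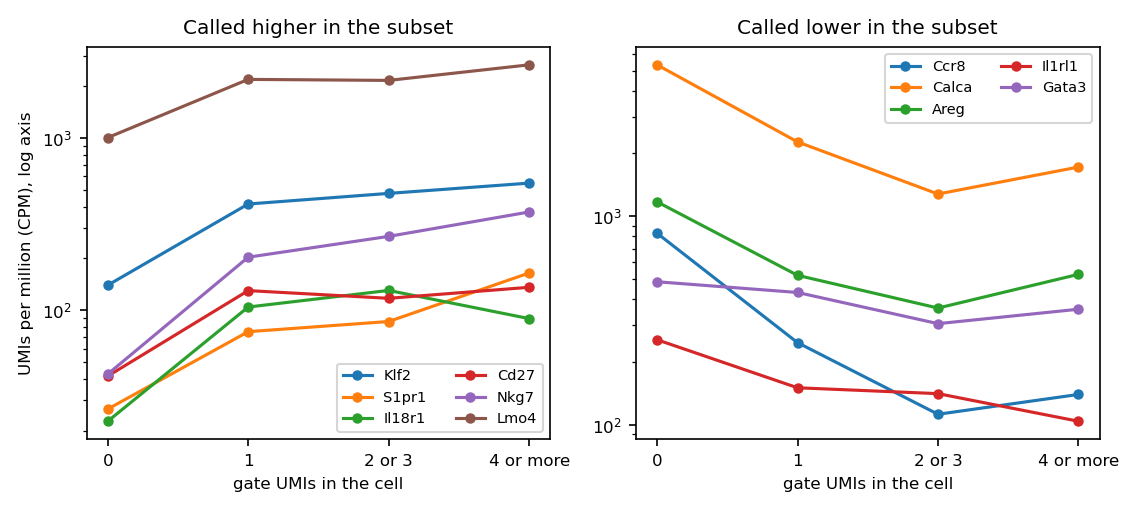
CPM on a log axis, summed over all 4 litters, in non-mitotic ILC2s with 0 (1077 cells), 1 (75), 2 or 3 (47) and 4 or more (38) gate UMIs, for genes called higher (left) and lower (right) in the subset than in sum-0 cells. Each listed gene moved away from its sum-0 level at 1 gate UMI already, least so for Gata3 (485 and 431 CPM). Gata3 helped to choose the cells, so its place among the lower genes is a description only.

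Subset cells carried markers of the sorted type, in part because they were chosen by them. The list holds Gata3, which the rule asks for in every cell, and Il1rl1, the gene for the sorted receptor ST2. Of 12 ILC2 markers, 11, 11, 11 and 9 were detected in the subset of the 4 litters, with a summed level of 3449 to 4426 CPM against 4603 to 5098 CPM in sum-0 cells, and Il5 was absent from the subset of 3 litters. The NK cell genes Ncr1, Klrb1c, Eomes, Tbx21 and Klre1 were at 0 in every litter of the subset, and the 7 NK or ILC1 markers together summed to 0 to 38.0 CPM, against 2.76 to 7.91 CPM in sum-0 cells. Among 10 T cell markers, Cd4, Cd8b1, Foxp3 and Cd5 were at 0 in every litter of the subset, and the summed level of the list, mostly Cd3g, was 319 to 648 CPM in the subset and 495 to 580 CPM in sum-0 cells. ILC3 or LTi markers summed to 0 to 59.8 CPM in the subset and 20.4 to 76.5 CPM in sum-0 cells. Mast cell or basophil markers were lower in the subset, at 42.7 to 81.5 CPM against 114 to 277 CPM. The B cell list summed to 58.5, 67.2, 244 and 73.0 CPM in the subset against 39.0 to 48.0 CPM, with no overlap. Its markers Cd79a and Ms4a1 were at 0 in the subset of 3 litters and detected in PBS-1.

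Some cells of both groups held many transcripts of other lung cells. Cells with at least 30 UMIs of Sftpc (surfactant protein C, an alveolar epithelial product), or at least 10 UMIs summed over markers of mesenchymal, endothelial, B, mast or myeloid cells, numbered 6 of 85 in the subset (7.06%) and 44 of 1077 among sum-0 cells (4.09%). They are called marked cells here. In sum-0 cells, 17 of 1077 cells held 95.03% of all Sftpc UMIs, and no subset cell reached 30. Mesenchymal markers reached 10 UMIs in 3 subset cells, endothelial markers in 3 and B cell or antigen-presenting markers in 1. Results of the comparison with sum-0 cells that rest on marked cells are given with and without them. The subset summed to 109608 to 205221 UMIs per litter and the sum-0 cells to 1812333 to 2414498, so 3 counts equal 14.6 to 27.4 CPM in the subset. The median was 7434 UMIs per cell in the subset and 6518 in sum-0 cells, and after thinning each cell to 3000 UMIs (1 and 29 shallower cells left out) the median number of genes was 1401 and 1400.

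Against sum-0 cells, the subset had higher transcripts of Nkg7, S1pr1, Klf2 and Il18r1, and lower transcripts of Ccr8, Areg and Calca. UMIs were summed per litter and group, and edgeR's quasi-likelihood test, with litter as a term, was applied to 7953 genes. The gate genes, Tcf7 and Ms4a4b were left out of the calls. Genes of the ILC2 rule were not: the counts hold Il2rb as higher and Gata3, Il2ra and Tnfrsf18 as lower. Those calls are a description only, since the rule used their values. At a Benjamini-Hochberg adjusted p under 0.05, 366 genes (4.6% of those tested) differed, 142 higher (1.79%) and 224 lower (2.82%) in the subset. Without marked cells 362 genes were called, of which 307 were called with them too. Of the 224 genes called lower, 24 had at least 50% of their sum-0 UMIs in marked cells. In what follows, levels per litter are CPM after TMM scaling, in the order DEX-1, DEX-2, PBS-1 and PBS-2, differences are log2 values of subset minus sum-0 cells with their standard error (SE), and called counts are to be read against the 4.6% called among all genes.

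The largest rises included genes of cytotoxic granules. Gzmb, which encodes the granule protease granzyme B, was at 34.95, 553, 108 and 116 CPM in the subset and at 4.18, 3.92, 0.528 and 2.91 CPM in sum-0 cells (log2 difference 5.84, SE 0.47, adjusted p = 4.59e-07). The groups did not overlap, but DEX-2 stood far above the other litters. Without DEX-2 the difference was 4.94, and without DEX-1 it was 6.51. Its UMIs were confined to 13 of 85 subset cells (15.3%), against 1.21% of sum-0 cells. In 3 litters a single cell held most of them: 6 of 7 UMIs in DEX-1, 18 of 20 in PBS-1 and 12 of 13 in PBS-2. The subset levels of those litters thus rest on 1 cell each. Nkg7, a granule membrane protein of NK and cytotoxic T cells, was far more evenly spread: it was detected in 77.6% of subset cells and 14.9% of sum-0 cells, at 245, 361, 385 and 258 CPM against 55.9, 56.0, 24.3 and 36.1 CPM (2.89, SE 0.24, adjusted p = 6.85e-07). Of 23 cytotoxic, NK and ILC1 genes, 7 passed the filter on low counts and 4 were called higher. A gene as scarce in sum-0 cells as Gzmb can pass the filter only through the subset, so this count says nothing about the list as a whole. The other genes called higher were Srgn, the core protein of granule proteoglycan (0.49, SE 0.08), and the chemokine Ccl5 (1.81, SE 0.48). Neither kept its call in all litters left out: Srgn had an adjusted p of 0.0691 without DEX-2, and Ccl5 lay at 0.70 with an adjusted p of 0.341 without DEX-1, 0.0813 in the absence of PBS-1, 0.116 in that of PBS-2, and at 2.51 without DEX-2. The perforin gene Prf1 was detected in 5.88% of subset cells and 1.49% of sum-0 cells and did not pass the filter.

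Genes that direct lymphocyte exit from tissue and position within it differed in the subset in both directions. Of 28 homing receptor and integrin genes, 20 were tested, 6 rose and 1 fell. S1pr1, the sphingosine-1-phosphate receptor that lymphocytes need to leave tissues for lymph and blood, was at 120, 93.3, 125 and 151 CPM in the subset and 20.9 to 33.0 CPM in sum-0 cells (2.20, SE 0.24, adjusted p = 1.81e-05). Klf2, the transcription factor that drives S1pr1 in lymphocytes, was at 404, 933, 428 and 231 CPM against 119 to 169 CPM (1.75, SE 0.18, adjusted p = 8.87e-06). It was found in 78.8% of subset cells and 26.6% of sum-0 cells. Every subset litter lay above every sum-0 litter for both genes. Itgae, the integrin subunit CD103 that binds epithelial E-cadherin, was at 49.9, 49.7, 54.2 and 17.8 CPM against 1.57 to 7.47 CPM (3.46, SE 0.54, adjusted p = 0.000672, and 4.05 without PBS-2, where only 2 UMIs were counted). Itga4 rose by 1.17 (SE 0.17). Ccr2 and Selplg were called at 1.46 and 0.51 and lost their calls without DEX-2 (adjusted p of 0.111 and 0.189) and without PBS-1 (0.0852 and 0.155), and Selplg also without DEX-1 (0.0605). Ccr8 was the member that fell, at 160, 112, 125 and 80.0 CPM in the subset and 783 to 886 CPM in sum-0 cells (-2.76, SE 0.14, adjusted p = 2.99e-09). It was detected in 35.3% and 82.7% of the cells.

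**Figure D3:**
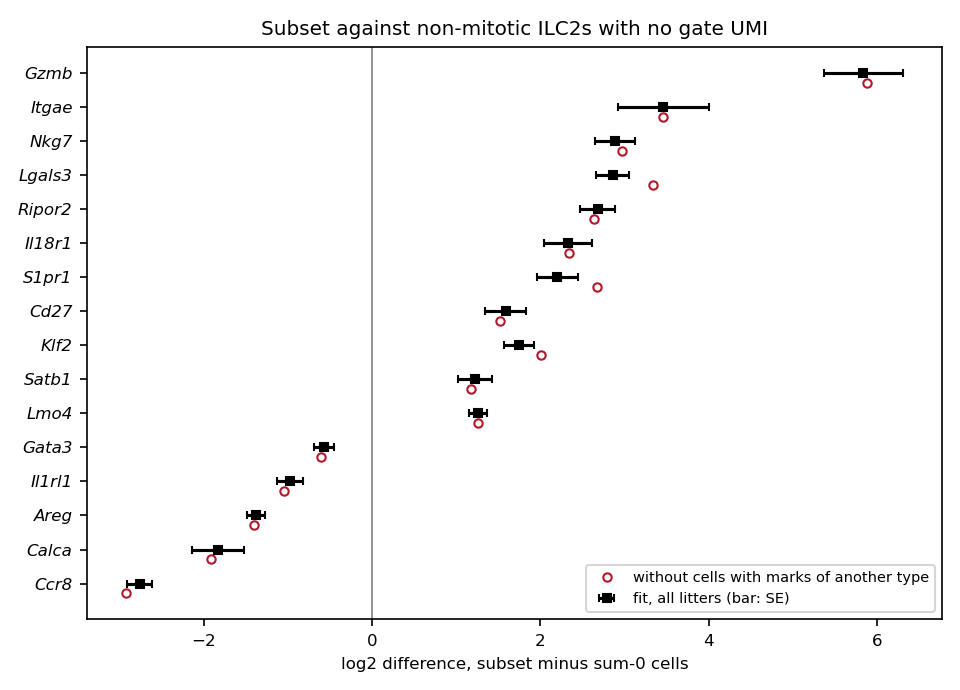
Log2 difference of 16 genes between the subset and sum-0 cells over 4 litters; squares with bars are the values and SEs over all cells, and open circles the values without marked cells. Gzmb had the largest rise and Ccr8 the largest fall among these genes, and each kept its sign without marked cells. Gata3 helped to choose the cells, and its value is a description only.

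Of 25 genes of the early innate lymphoid programme, 21 were tested, 6 rose and 1 fell (33.3% called), with a median of 0.23 against 0.00 over all genes. Il18r1, the receptor chain for IL-18, was at 105, 87.0, 146 and 116 CPM in the subset and 28.7, 26.9, 14.8 and 20.8 CPM in sum-0 cells (2.33, SE 0.28, adjusted p = 5.59e-05). Cd27, a co-stimulatory TNF receptor of early lymphocytes, was at 80.0 to 168 CPM against 27.96 to 59.5 CPM (1.59, SE 0.25). The chromatin organizer Satb1 (1.22, SE 0.21) and the transcription factor Ets1 (0.91, SE 0.15) were higher in all 4 litters. These genes, with Itga4, stayed called when any 1 litter was left out. Il7r, the IL-7 receptor chain, was the sixth that rose, at 0.43 (SE 0.11), with adjusted p values of 0.116, 0.371 and 0.0824 without DEX-1, DEX-2 and PBS-1, and it lay at -0.0786 with a gate without Cd7. Tox, a transcription factor of early ILC development, was lower, at 53.3 to 131 CPM against 162 to 199 CPM (-0.96, SE 0.20), with an adjusted p of 0.0534 without PBS-1. Of 7 T cell receptor constant transcripts, 4 were tested and 2 were called: Trbc1 rose by 1.48 (SE 0.25) and Trbc2 by 1.12 (SE 0.22). Trbc1 and Trbc2 are near-identical copies, so their split is uncertain. Tcrg-C1 was at 340, 839, 980 and 1253 CPM in the subset against 444 to 838 CPM, and did not pass the test (adjusted p = 0.138).

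Of 33 genes for adaptors and kinases of antigen receptor signalling, 23 were tested and 5 were called (21.7%). Cd2, an adhesion receptor of T and NK cells, was at 34.95, 49.7, 10.8 and 44.4 CPM against 1.06 to 3.74 CPM (4.05, SE 0.54, adjusted p = 0.000162) and was found in 20.0% and 1.30% of the cells. The kinase genes Txk (1.46), Lck (1.17) and Prkcq (0.67) were called higher and Ubash3a, a negative regulator, lower (2 UMIs in the subset, 0.123 times the sum-0 level, exact counting interval 0.0148 to 0.450). Each of these 4 lost its call when at least 1 litter was left out, with adjusted p values of up to 0.122 for Txk (without PBS-2), 0.106 for Lck (without PBS-1), 0.241 for Prkcq (without DEX-1) and 0.0891 for Ubash3a (without PBS-2). The list median was -0.20, so its calls do not describe the list as a whole. Other single genes with a lymphocyte role were Ripor2, a regulator of T cell polarity, and Tagap, a gene of activated T cells. Ripor2 was at 155, 155, 184 and 169 CPM in the subset and 23.5, 24.6, 25.3 and 30.3 CPM in sum-0 cells, the narrowest spread among the largest rises (2.68, SE 0.21, adjusted p = 2.94e-07). It was detected in 68.2% and 14.4% of the cells. Tagap rose by 2.90 (SE 0.42), the cell cycle phosphatase gene Cdc25b by 2.80 (SE 0.48), and the thromboxane receptor gene Tbxa2r, the aquaglyceroporin gene Aqp3 and the T cell receptor joining segment Trbj2-1 by 2.46, 2.32 and 2.13. Tbxa2r lost its call without PBS-2 (adjusted p = 0.0568), Trbj2-1 without DEX-2 (0.108) and Aqp3 without DEX-2 (0.0789) or PBS-1 (0.0637).

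ILC2 effector and identity genes were lower. Gata3, Il2ra, Il2rb and Tnfrsf18 helped to choose the cells and are left out of the count. Of the other 26 members, 22 were tested, 1 rose and 8 fell, with a median log2 difference of -0.46 over those tested. Areg, which encodes the tissue repair factor amphiregulin, was at 424, 286, 487 and 578 CPM in the subset and 1081, 911, 1147 and 1446 CPM in sum-0 cells (-1.38, SE 0.10, adjusted p = 1.84e-07). No subset litter reached the lowest sum-0 litter. Calca, the precursor of the neuropeptide CGRP, was the most abundant effector transcript, at 2077, 1642, 531 and 1716 CPM against 7446, 4421, 7729 and 2364 CPM (-1.83, SE 0.31, adjusted p = 0.00133). Hs3st1, a heparan sulfate sulfotransferase gene, fell by 1.12 (SE 0.13). Csf2, which encodes GM-CSF, lay at -2.41 (SE 0.34), or -3.42 without PBS-1. Il5 counted 3 UMIs in the subset, all in DEX-2, a level of 4.53 CPM against 45.4 CPM in sum-0 cells (0.0998 times, exact counting interval 0.0205 to 0.294), and without DEX-2, where no UMI was left in the subset, its fitted difference was -7.42 with an adjusted p of 0.0515. Il13 was at 59.9, 317, 43.3 and 0 CPM in the subset and 198 to 267 CPM in sum-0 cells, groups that overlapped, and did not pass the test (adjusted p = 0.203). Il1rl1, the gene for the sorted receptor ST2, was at 110, 137, 130 and 133 CPM against 209 to 288 CPM (-0.97, SE 0.15, adjusted p = 0.000672), and Gata3 at 350, 379, 298 and 276 CPM against 435 to 539 CPM. Gata3 was detected in every cell of both groups because the rule asks for it. Il2ra, Tnfrsf18 and Il2rb are receptors of which the rule asks for 2 UMIs in sum, and their log2 differences of -1.12, -0.60 and 1.02 are a description only. Lmo4 rose, at 2292, 2301, 2567 and 2400 CPM against 797 to 1258 CPM (1.26, SE 0.11, adjusted p = 1.21e-06). Nr3c1, the glucocorticoid receptor gene, was at 204 to 409 CPM against 298 to 393 CPM and did not pass the test (adjusted p = 0.271).

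Because Dtx1 and Pde2a are in the gate, their pathways were described too. Of 34 Notch pathway genes, 23 were tested, 1 rose and 2 fell (13.04% called), with a median of 0.02. Psen2, a catalytic subunit of the gamma-secretase that releases Notch, fell by 1.11 (SE 0.20). The Notch target Hes1 was called lower (-0.91, SE 0.21) and the Notch target Hey1 higher (0.61, SE 0.16). Their litters overlapped, and Hes1 lost its call without PBS-1 or PBS-2 (adjusted p of 0.157 and 0.15) and Hey1 without DEX-1, PBS-1 or PBS-2 (0.231, 0.217 and 0.235). Of 36 genes of cyclic nucleotide signalling, 21 were tested and 3 fell (14.3% called), with a median of -0.41. The phosphodiesterase gene Pde7b was at 155, 62.2, 32.5 and 80.0 CPM against 183 to 271 CPM (-1.45, SE 0.22), while Calcrl, the CGRP and adrenomedullin receptor chain (-2.13, SE 0.45), and the cAMP-responsive regulator Crem (-0.68, SE 0.16) lost their calls without PBS-2 (adjusted p of 0.0569 and 0.0524), and Crem also without DEX-2 (0.121) or PBS-1 (0.0823). The MS4A family had 1 member tested outside Ms4a4b: Ms4a6b rose by 3.504 (SE 0.66), or 4.31 without PBS-1, with an adjusted p of 0.0603 without DEX-2.

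Of 12 galectin, S100 and related genes, all were tested, 5 rose and 1 fell. Lgals3, which encodes galectin-3, was at 439, 821, 265 and 711 CPM against 64.7 to 80.6 CPM (2.86, SE 0.20, adjusted p = 1.05e-07), and 1 cell held 21.2% of its subset UMIs. In PBS-2, 3 of 12 subset cells held Lgals3, and 1 of them 74 of its 80 UMIs. A single cell held 73 of its 132 UMIs in DEX-2. S100a4 (1.37, SE 0.16), S100a10 (0.99, SE 0.13), S100a6 (0.76, SE 0.13) and the LIM protein gene Crip1 (0.58, SE 0.09) rose as well. S100a6 changed sign when the gate was set without Cd7 (-1.07, adjusted p = 0.00498). Anxa1, which encodes annexin A1, was called lower (-1.56, SE 0.34, adjusted p = 0.0564 without PBS-2). Of 19 genes listed as glucocorticoid receptor targets, including the receptor chaperone gene Hsp90ab1, 5 were called. Tsc22d3 (0.83), Il7r and Hsp90ab1 (0.33) were higher and Cdkn1a (-0.76) and Fkbp5 (-1.10) lower. The best known of these targets thus moved in opposite directions, and among the 5 (26.3% of the 19) only Cdkn1a stayed called when any 1 litter was left out; the highest adjusted p was 0.0726 for Tsc22d3 (without DEX-1), 0.283 for Fkbp5 and 0.262 for Hsp90ab1 (both without PBS-1). None of the 6 ILC3 and LTi genes tested and none of the 17 DNA replication genes tested was called.

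Many of the largest falls on the log2 scale were of genes known from other lung cells. Retnla, Lyz1, Cxcl15, Slc34a2, Sftpb, Sftpa1, Sftpc, Dlk1 and Lyz2, which epithelial, mesenchymal or myeloid cells are known to express, were called at log2 differences of -5.36 to -3.70, and without marked cells 6 of them no longer passed the filter while Cxcl15, Sftpc and Dlk1 lay at -0.53, -0.07 and 0.65. With marked cells kept, the value was -4.72 for Dlk1, -5.05 for Lyz2, -7.00 for Sftpa1 and -8.78 for Slc34a2 without DEX-1, -6.25 for Sftpb without DEX-2 and -6.07 for Retnla without PBS-2. Sftpc was found in 76.5% of subset cells and 79.8% of sum-0 cells. Syne4, Tph1 and Alox5ap fell with marked cells and without them. Tph1, the enzyme of peripheral serotonin synthesis, was at 0, 0, 0 and 35.6 CPM against 48.5 to 161 CPM (-3.86, SE 0.57), all of it in 1 cell of PBS-2, and at -9.44 without PBS-2 and -3.13 without DEX-2. Alox5ap, which leukotriene synthesis needs, counted 3 UMIs in the subset (0.0645 times the sum-0 level, exact counting interval 0.0133 to 0.189), and Syne4, a nuclear envelope protein, 1 UMI (0.0356 times, 0.000899 to 0.200), which lay in PBS-2. With marked cells left out, an alternative chosen after seeing the data, the same rule also named Stab2, a scavenger receptor (-3.40, SE 0.27, detected in 7.06% and 41.5% of all subset and sum-0 cells), the cathepsin inhibitor gene Ctla2a (-3.36, SE 0.25, 56.5% and 90.9%) and the phosphatase gene Ptpn13 (-3.17, SE 0.23, 21.2% and 67.4%). Ctla2a and Ctla2b are close copies, so the split of their counts is uncertain.

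The share of the subset was compared between treatments. In DEX-1 it made up 8.31% of non-mitotic ILC2s (27 of 325 cells, 95% Wilson interval 5.77 to 11.8%) and in DEX-2 8.13% (23 of 283, 5.48 to 11.9%). For PBS-1 the share was 7.82% (23 of 294, 5.27 to 11.5%), and for PBS-2 3.58% (12 of 335, 2.06 to 6.16%). The means were 8.22% (SD 0.128, n = 2) in DEX and 5.70% (SD 2.999, n = 2) in PBS litters. PBS-1 lay close to the DEX litters and PBS-2 alone lay low. The difference of 2.52 percentage points gave p = 0.333 in a two-sided exact permutation test over litters, the smallest p that 2 against 2 allows, and it was 0.394 points without PBS-2 and 4.64 without PBS-1. It was -0.0947 points with a gate without Cd7 and -2.60 points when cells with T cell transcripts, most of them Cd3g, were left out. The intervals cover counting error only.

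**Figure D4:**
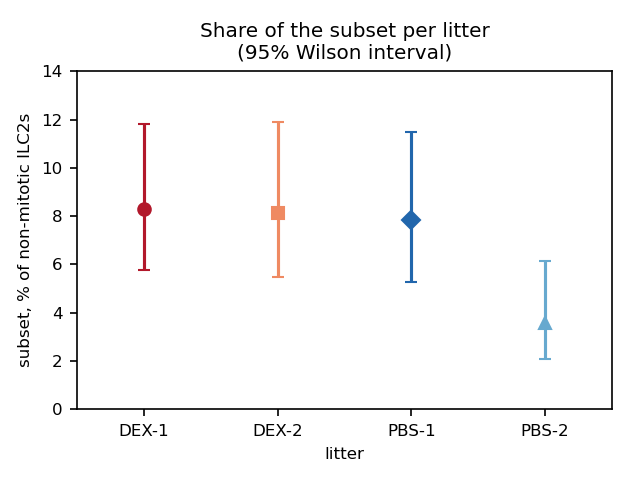
Share of the subset among non-mitotic ILC2s in each litter, in percent, with 95% Wilson intervals. DEX-1, DEX-2 and PBS-1 lie between 7.82 and 8.31% and PBS-2 at 3.58%.

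Within the subset, DEX and PBS litters were compared over 2868 genes. edgeR's quasi-likelihood test called 0 of them (0.0%), while 137 had an unadjusted p under 0.05. DESeq2 and limma-voom called 1 gene each, Cxcl2, a neutrophil-attracting chemokine. Cxcl2 was at 1087 and 1141 CPM in the DEX litters of the subset and 136 and 353 CPM in the PBS litters, a log2 difference of 2.29 (SE 0.33) with an adjusted p of 0.259. The groups did not overlap, but single cells held 93 and 76 of its 189 UMIs in DEX-2 and 54 and 47 of 219 in DEX-1. Without marked cells edgeR called 3 genes, Cxcl2 (2.02, SE 0.28), Bambi (-1.78, SE 0.31) and the ferritin heavy chain gene Fth1 (0.81, SE 0.13). Each litter held 12 to 27 subset cells, and the number of calls depended on the fit, with 26 to 45 genes called when 1 litter was left out and 37 with no filter on low counts. The absence of calls does not show that DEX left the subset unchanged. In sum-0 cells, 46 of 9567 genes (0.481%) were called, of which 32 passed the filter in the subset. Both comparisons used the same 4 litters. Ramp3, a co-receptor for CGRP-family peptides, was called in sum-0 cells at 179 and 238 CPM against 56.3 and 52.7 CPM (1.93, SE 0.16), and in the subset stood at 353 and 133 CPM against 109 and 72.4 CPM (1.39, SE 0.49, adjusted p = 1). Tnfrsf9, the co-stimulatory receptor 4-1BB, was at 1.52 (SE 0.14) in sum-0 cells and 1.57 (SE 0.38) in the subset. Hes1 was at -0.93 (SE 0.12) in sum-0 cells and 0.00 (SE 0.53) in the subset, and the test of that difference gave an adjusted p of 0.830.

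The difference of the DEX effect between the subset and sum-0 cells was itself tested over 8958 genes, and 16 (0.179%) were called, 10 with a higher value in the subset (0.112%) and 6 with a lower one (0.067%). Cxcl2 differed by 2.11 (SE 0.24, adjusted p = 3.87e-08): in sum-0 cells it was at 1024, 995, 738 and 969 CPM, close to the subset of the DEX litters and above that of the PBS litters. Within the subset, Cxcl2 was detected in 12 of 27, 7 of 23, 3 of 23 and 7 of 12 cells, so PBS-2 had the highest share of cells with a UMI while its level was low. The difference was -0.28 with a gate without Cd7 and 0.17 after thinning, a fit without PBS-2 since it had no subset cell left. Nor was Cxcl2 called at a gate sum of 3 or more (0.63) or with 2 different gate genes (0.90, adjusted p = 0.909). With T cell transcripts left out it lay at 2.06 (adjusted p = 0.662). Nr4a2, an orphan nuclear receptor induced early after activation, was at 335, 286, 170 and 96.1 CPM in the subset and 432, 357, 673 and 667 CPM in sum-0 cells (1.93, SE 0.28, adjusted p = 1.63e-05). The DEX litters were higher in the subset and lower in sum-0 cells, and Cxcl2 and Nr4a2 stayed called when any 1 litter was left out. Nr4a2 was not called after thinning (1.87, adjusted p = 0.982), with a gate without Cd7 (1.22, adjusted p = 0.74) or with T cell transcripts left out (2.28, adjusted p = 0.0956). None of the named genes kept its call for this difference under all alternatives run. Cdk11b, a cyclin-dependent kinase gene, was at 185, 329, 133 and 105 CPM in the subset and 297, 270, 510 and 380 CPM in sum-0 cells (1.74, SE 0.32, and 1.22 with an adjusted p of 0.401 without DEX-2). Bambi, a decoy receptor that inhibits TGF-beta family signals, was at 120, 158, 313 and 489 CPM against 263, 317, 298 and 305 CPM (-1.44, SE 0.29), with adjusted p values of 0.176 without DEX-1 and 0.402 without PBS-2. In PBS-2 only 3 of 12 subset cells held Bambi, and 1 of them 38 of its 56 UMIs. Il13 was at 60.0, 311, 42.5 and 0 CPM in the subset and 202 to 270 CPM in sum-0 cells (2.87, SE 0.59), was at 1.37 with an adjusted p of 1 without DEX-2, at 2.00 with an adjusted p of 0.0548 without PBS-2, at 3.77 without DEX-1 and at 10.9 without PBS-1. Most of the other called genes rested on 1 cell: a single subset cell held 95.5% of Acta2, 98.3% of Tagln, 100% of Myl9 and Timp4, 95.4% of Cd74 and 95.7% of Thbs1 UMIs. Without DEX-1, Acta2, Tagln and Myl9 lay at 2.79, -3.35 and 3.52, each with an adjusted p of 1, as did Thbs1 at -6.43 without PBS-2, and Cd74 lay at -0.98 without PBS-1 (adjusted p = 0.998).

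**Figure D5:**
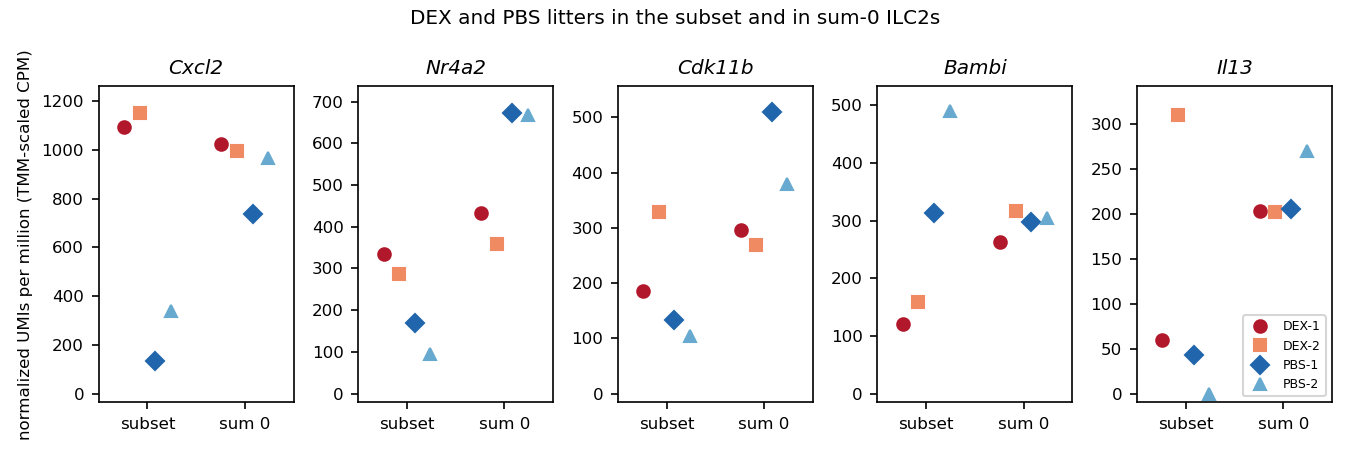
TMM-scaled CPM of 5 genes in the subset and in sum-0 cells of the 2 DEX and 2 PBS litters, on a separate linear axis for each gene; each symbol is a litter. The DEX litters of the subset lie above the PBS litters for Cxcl2, Nr4a2, Cdk11b and Il13 and below them for Bambi.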

How the data were processed

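Sorted fetal lung cells were profiled by droplet 5′ single-cell RNA-seq in 1 run with a hashtag antibody per litter. The deposited matrix held raw UMI counts of 32285 genes and 4 hashtags in 10648 distinct barcodes, which the authors made with Cell Ranger 7 and, per the submitters' processing notes, the mm10 build (GRCm38). Barcodes with at least 200 genes, at most 5% mitochondrial UMIs, and a leading hashtag with at least 10 UMIs and 3 times the next were kept (8598 singlets). This removed doublets between litters; doublets within a litter were not removed, and no doublet caller was run. HTODemux of Seurat 5.3.0 moved 0 of the 1699 ILC2s that both methods called to another litter. A study legend gives 1 dam per treatment where its methods and hashtags give 2, and litters were taken as replicates. For DEX against PBS within a group of cells, p values measure the spread between litters. Where litter is a term, they measure how far the difference between subset and sum-0 cells varies from litter to litter.

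UMIs were summed per litter and group and tested with edgeR 4.0.16 (R 4.3.3; TMM scaling, filterByExpr, quasi-likelihood F test, Benjamini-Hochberg adjusted p under 0.05). The comparison of the subset with sum-0 cells had litter as a term, DEX was compared with PBS within each group of cells, and the difference of the DEX effect was an interaction term. DESeq2 1.42.0 and limma 3.58.1 (voom) were alternatives, beside other filters, gates and samples. Shares were compared with an exact permutation test over litters (scipy 1.17.1). The tests were checked on simulated counts. Adjusted p values in the text are edgeR's unless another tool is named.

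The members, gene lists and tests were chosen with earlier results of these data known. Named genes were the gate genes, Tcf7 and Ms4a4b; per comparison the 12 largest rises and 12 largest falls among called genes with a mean of at least 20 CPM and 1 direction in every litter (no overlap for DEX), predicted genes excepted; per list up to 6 called members and the 2 highest; and Gata3, Il1rl1, Nr3c1, Il5, Il13, Areg, Csf2 and Gzmb. Genes named for cell type markers, marked cells or single cells, and Tnfrsf9 and Prf1, were named after their values were seen. Intervals cover counting error only.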

Additional observations from a re-analysis of the deposited data

Results flagged for a closer look

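The DEX effect differed between the subset and sum-0 cells by the test of the difference itself in 16 genes. Cxcl2 (2.11), Nr4a2 (1.93), Cdk11b (1.74) and Il13 (2.87) had higher log2 values of DEX minus PBS in the subset than in sum-0 cells, and Bambi (-1.44) a lower one. The values of Myl9 (11.4), Timp4 (14.4), Tagln (6.9), Acta2 (5.99), Cd74 (-5.48) and Thbs1 (-10.2) each rested on 1 subset cell that held at least 95.4% of the gene's subset UMIs. Id1 (5.72), Mfap4 (-4.12) and Gsn (-2.65) had 63.2%, 56.0% and 37.5% of their subset UMIs in 1 cell. Without marked cells, Id1, Mfap4, Gsn, Acta2 and Cd74 lay at 9.45, 0.955, -0.56, 0.17 and -1.49, and none of these was called. Ccl1, at -9.48, was found in 2 subset cells with 22 UMIs. The predicted gene Gm42418 differed by 0.778.

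Dixon's criterion, which flags about 1 in 20 groups by chance, was applied to named genes called between the subset and sum-0 cells. Only the largest rises and falls and the genes listed from Gata3 to Gzmb were used. For 6 of them a subset litter stood apart from the other 3. They were Gzmb in DEX-2 (553 CPM), Itgae in PBS-2 (17.8 CPM), Slc34a2 in DEX-1 (4.99 CPM), Syne4 in PBS-2 (8.89 CPM), Tph1 in PBS-2 (35.6 CPM) and Il5 in DEX-2 (18.7 CPM). For Slc34a2, Syne4, Tph1 and Il5 the other 3 litters were at 0. A gene with UMIs in 1 litter alone is always flagged, so the chance rate does not apply to these.

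Mitotic ILC2s, which the comparisons left out, also held gate transcripts: 43 of 507 (8.48%, 95% Wilson interval 6.36 to 11.2%) had at least 2 gate UMIs.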

How the results depend on the processing

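Alternatives that leave out marked cells, ask for 2 different gate genes, or leave out T cell transcripts other than Cd3g were chosen after seeing the data. Genes called between the subset and sum-0 cells numbered 366, and 556 with limma-voom, 248 with DESeq2, 67 after thinning, 136 with a gate sum of 3 or more, 181 with 2 different gate genes, 45 without cells holding T cell transcripts, and 217 to 307 with 1 litter left out. A gate without Cd7 called 322, with 61 higher and 261 lower, against 142 and 224. Of the 366 genes, 202 were called with that gate too, 200 of them in the same direction. Thinning left PBS-2 without subset cells, and a mitochondrial limit of 10% chose the same cells. Between DEX and PBS in the subset, 0 genes were called, against 1 each with DESeq2, limma-voom, thinning, a gate without Cd7, T cell transcripts left out, cells over 20000 UMIs left out and Tyrobp at 0, 2 with a gate without Pde2a, 3 without marked cells, 37 with no filter and 26 to 45 with 1 litter left out. In sum-0 cells the count was 46, and 317 with no filter, 91 thinned, 98 without Cd7, 70 without Trat1, 3 without T cell transcripts, 71 without cells over 20000 UMIs and 136 to 292 with 1 litter left out. For the difference of the DEX effect it was 16, and 3 with DESeq2, 10 with limma-voom, 1 thinned, 8 without Trat1, 7 without T cell transcripts, 9 without cells over 20000 UMIs, 25 without marked cells and 17 to 45 with 1 litter left out. The fits with 1 litter in an arm assume that it varies like the others. Same-numbered litters share only a number (correlation of deviations 0.217 in the subset and 0.0275 in sum-0 cells, 2 pairs). With the replicate block the counts were 0 in the subset, 36 in sum-0 cells and 30 for the difference, and the comparison of the groups without its litter block called 302. The share difference of 2.52 points was -0.0947 without Cd7 and -2.60 without T cell transcripts, and 0.394 to 4.64 with 1 litter left out.

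Signs turned for Dlk1 (0.65) and Mfap4 (0.95) without marked cells; for Il7r (-0.0786), S100a6 (-1.07), Acta2 (-5.18) and Cxcl2 (-0.28) with a gate without Cd7; for Prkcq (-0.011), Hsp90ab1 (-0.0584), Tagln (-0.80), Acta2 (-8.15), Cd74 (2.11) and Gsn (0.28) after thinning; for Gsn (0.27) at a gate sum of 3 or more; for Cd74 (0.35) without Trat1; for Tagln (-3.35) without DEX-1, with 10.5 without PBS-2 at the other end; and for Aqp5 in sum-0 cells (0.68) and Il13 (-1.47) without T cell transcripts. The cause was not tested. Of the named genes called between the groups, 8 kept direction and call under all 23 alternatives, 7 under all that gave them a value (at least 1 did not), 47 lost the call in at least 1 and 5 turned. For the difference of the DEX effect, 7 named genes lost the call in at least 1 alternative, 7 turned and 0 kept it in all. The low depth of PBS-2, with 12 cells, limits every value of the subset in that litter.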

Other observations

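DNA replication genes, which load and fire origins and make nucleotides in S phase, were tested in the subset in small number. All 7 that passed the filter lay below 0 for DEX minus PBS, with a median log2 difference of -0.66 against 0.00 over all genes, and none was called. Mcm6, a helicase subunit, was at 109 and 109 CPM in DEX litters and 174 and 154 CPM in PBS litters of the subset (-0.60, SE 0.31, edgeR adjusted p = 1). For the difference of the DEX effect between the subset and sum-0 cells, 2 of the 19 tested lay above 0, with a median of -1.02 against 0.01 over all genes, and none was called. Of 12 galectin and S100 genes, 11 lay above 0 in that difference, with a median of 0.34, and none was called. The members of a list were read in the same 12 to 27 subset cells per litter. They are not separate observations, and the counts of members on 1 side of 0 were not tested.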
